A study of Mus musculus with 2 samples.

Results

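In the pancreatic tumours of this series, 753 of 3022 gated myeloid cells scored highest for Chil3, Cxcl3 and Car4, and these 753 cells are the members described here. They came from 21172 cell barcodes in all: 364 members were in the tdTomato positive library (7568 barcodes) and 389 in the tdTomato negative library (13604 barcodes). The members were chosen by measured RNA levels, so what separates them from other myeloid cells is given as a description. The tumours were a pancreatic cancer allograft, and both libraries were stromal cells sorted from mice carrying p16-CreERT2/R26-LSL-tdTomato. In this model the tamoxifen-activated recombinase is expressed from the p16 promoter of the Cdkn2a gene. The recombinase switches on tdTomato from the Rosa26 locus by removing a stop cassette. The mark is permanent and passes to daughter cells, so it records earlier recombinase activity and not p16 at the time of collection. The groups are labelled Tom positive and Tom negative, with 1 library each, and differ by the fluorescence sort. The age and number of mice, the tumour line and the drug schedule were not given in the sources used here. With 1 library per group there was no replicate, and no test between the groups was possible.

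Monocytes leave the blood for tumours through the chemokine receptor Ccr2 and mature there into macrophages or antigen-presenting cells, losing markers such as Ly6c2 as they do. Tumour myeloid cells can promote growth by using up arginine, by drawing in neutrophils with CXC chemokines and by depositing or cutting matrix. Chil3 encodes Ym1, a secreted chitinase-like lectin of mouse myeloid cells. Cxcl3 encodes a ligand of the neutrophil receptor Cxcr2, and Car4 encodes a membrane-anchored carbonic anhydrase.

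A barcode counted as myeloid with at least 5000 unique molecular identifiers (UMIs, 1 per captured RNA molecule), at least 500 genes and at most 10% mitochondrial UMIs. It also needed at least 500 CPM (UMIs scaled to a common total per cell or group) of Tyrobp plus Fcer1g, under 5000 CPM of S100a8 plus S100a9, under 2000 CPM of Col1a1 plus Col3a1, and under 200 CPM of Cpa3 plus Cd3e. Each cell was scored for 5 gene sets as a mean log value, standardised over all 3022 cells (z): set A with Cd163, Folr2 and Cbr2, set B with Nos2, Mmp12 and Hmox1, set C with Retnla and Ear2, set D with Chil3, Cxcl3 and Car4, and set E with Ccl17, Ccl22 and Plet1. Members were the cells whose highest z was D. The median z for D was 1.18 in Tom positive members and 0.856 in Tom negative members, and 28 and 31 members had a z below 0, since only the highest of the 5 scores counted. All members had a UMI of at least 1 of the 3 genes; 100 and 121 had exactly 1, 151 and 158 had 2, and 113 and 110 had all 3. Within 0.1 z of the border stood 27 and 38 members on the inside, with a median summed level of the 3 genes of 1792 and 951 CPM, and 24 and 35 cells on the outside, with 2186 and 747 CPM. Cells on the 2 sides of the border thus held like levels of the 3 genes, well below the members' medians of 5391 and 3677 CPM.

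The starts of the 3 genes that define the members are shown because the membership turns on them. Each line gives the 250 bases before the RefSeq start (GRCm38.p6), in the direction of transcription: Chil3 at chr3:106167565-106167814 on the minus strand, Cxcl3 at chr5:90785851-90786100 on the plus strand and Car4 at chr11:84957504-84957753 on the plus strand. Capitals mark matches, on either strand, to the NF-kB consensus, AP-1 (TGANTCA), C/EBP (TTNNGNAA) or the hypoxia response element core (ACGTG).
Chil3: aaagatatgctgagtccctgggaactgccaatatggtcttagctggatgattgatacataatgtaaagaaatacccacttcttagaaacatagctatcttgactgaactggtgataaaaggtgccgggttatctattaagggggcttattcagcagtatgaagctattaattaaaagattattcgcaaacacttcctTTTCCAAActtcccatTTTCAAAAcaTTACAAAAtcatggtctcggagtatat
Cxcl3: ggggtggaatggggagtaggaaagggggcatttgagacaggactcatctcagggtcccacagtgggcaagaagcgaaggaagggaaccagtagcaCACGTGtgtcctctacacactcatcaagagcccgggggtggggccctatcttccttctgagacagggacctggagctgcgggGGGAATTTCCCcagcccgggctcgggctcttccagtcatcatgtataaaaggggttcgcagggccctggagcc
Car4: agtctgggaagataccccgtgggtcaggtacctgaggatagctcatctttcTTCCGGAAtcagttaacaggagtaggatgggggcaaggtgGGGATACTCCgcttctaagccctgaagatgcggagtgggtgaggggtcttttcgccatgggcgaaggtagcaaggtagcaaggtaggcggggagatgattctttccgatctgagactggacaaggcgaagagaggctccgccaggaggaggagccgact
Chil3 held 3 C/EBP matches, starting 53, 37 and 27 bases before the start. Cxcl3 held an NF-kB match on both strands, starting 73 and 72 bases before the start, and overlapping ACGTG matches at 155 and 154 bases. Car4 held 1 NF-kB match at 159 bases and 1 C/EBP match at 199 bases. No AP-1 match lay in these windows. Of 32851 windows of the same length, 3.90% held the NF-kB letters, 6.75% AP-1, 36.8% C/EBP and 16.6% ACGTG, so the C/EBP letters are common in any such window. No measurement of these data bears on binding at them.

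Members were of ordinary depth for these libraries. Their median was 18747 UMIs and 4189 genes in Tom positive and 19541 UMIs and 4341 genes in Tom negative, against set medians from 17966.5 to 25600 UMIs in the other 4 sets. Summed over members, the libraries held 7646630 and 8737113 UMIs. The median mitochondrial share was 2.93% in Tom positive and 4.26% in Tom negative members, a difference that also stood in set B (2.98% and 4.22%). The libraries were closer in sets A (4.94% and 4.83%), C (4.37% and 4.65%) and E (4.26% and 4.71%). The libraries shared 3660 cell barcodes. Among members, 81 (22.3%) in Tom positive and 22 (5.66%) in Tom negative had a barcode that the other library also held, mostly as a shallow copy (medians 657 and 591 UMIs), and no barcode was a member in both. The shared barcodes belonged to deep cells: they had a median of 34618 UMIs against 15775 in the other Tom positive members and carried 39.9% of those members' UMIs (13.1% in Tom negative). Scrublet called 2 and 0 members as doublets.

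Members made up 29.0% of gated myeloid cells in Tom positive (364 of 1255, 95% exact binomial interval 26.5 to 31.6%) and 22.0% in Tom negative (389 of 1767, 20.1 to 24.0%). The intervals, here and below, cover counting error only. Without shared barcodes the shares were 30.3% and 21.7%. Of all barcodes with at least 5000 UMIs, members were 10.3% of 3543 and 8.47% of 4591, a ratio of 1.21 between the libraries, against 1.32 among gated cells. When z was computed within each library, the shares were 25.3% and 24.3%; centring each library by itself draws such shares together by construction. The effect of the sort on these shares cannot be told apart from other differences between the libraries.

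The genes of the rule stood as follows. CPM counts molecules, 1 UMI each, so levels of different genes can be set side by side without a correction for length. Chil3 was at 1574 CPM in Tom positive members (95% exact Poisson interval 1546 to 1602) and 1051 in Tom negative members (1029 to 1073), against 100.2 and 61.4 in the other gated cells. Cxcl3 was at 3817 and 3300 CPM, against 729 and 574. Car4 was at 538 and 441 CPM, against 92.9 and 86.8. All 3 genes were lower in each of the other 4 sets, in both libraries, and the next highest level of Cxcl3 (1728 and 1372 CPM) and of Car4 (211 and 179 CPM) was in set B. Thinned to 5000 UMIs per cell, Cxcl3 had a UMI in 91.5% and 89.7% of members, Chil3 in 51.4% and 45.2%, and Car4 in 39.6% and 33.9%. Unthinned, these shares were 95.9% and 94.6%, 60.7% and 59.6%, and 47.0% and 42.9%, against 58.0% and 63.5%, 17.1% and 22.9%, and 16.6% and 18.4% in the other gated cells. Chil3 stood at 2.07 and 2.11 CPM in endothelial barcodes, which should lack it. Chil4, a near copy of Chil3, was at 0.392 and 0 CPM.

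F13a1 and Arg1, the remaining markers proposed for these cells, did not enter the score. F13a1, the transglutaminase subunit that cross-links fibrin and a gene of monocytes and resident macrophages, was at 1777 and 943 CPM in members and 876 and 468 in the other gated cells, 2.03-fold and 2.01-fold higher. Set A lay close to members for F13a1 (1359 and 998 CPM), and in Tom negative it was above them. Arg1, the arginase that splits arginine to ornithine, was at 5152 and 4481 CPM, 1.96-fold and 1.97-fold above the others. Its level in set B was near that of members (4634 and 4138 CPM). Arg1 therefore marked sets B and D together, and F13a1 marked sets A, B and D against C and E.

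**Figure D1:**
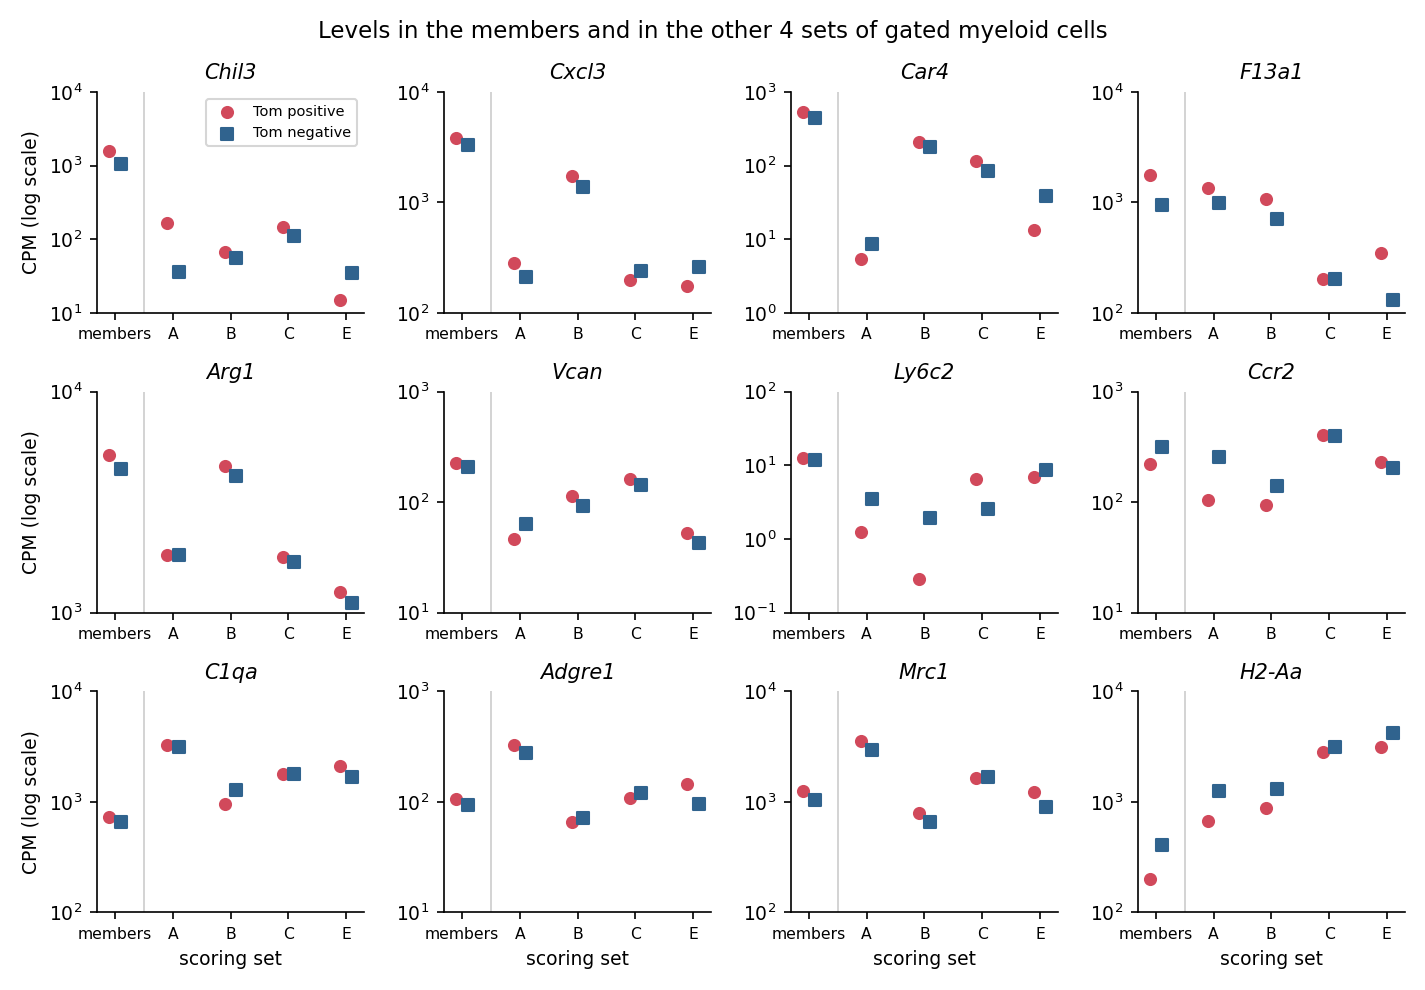
Summed level (CPM, log axis) of 12 genes in members and in sets A, B, C and E; circles are the Tom positive library and squares the Tom negative library, 1 point each. Chil3, Cxcl3 and Car4, which chose the members, are highest there; Ly6c2 reaches only 12.6 and 11.8 CPM, Ccr2 is highest in set C, and H2-Aa is lowest in members.

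The monocyte name held only in part. Of 11 classical monocyte genes measured at 10 CPM or more, 4 were at least 2-fold higher in members than in the other gated cells in both libraries (Ly6c2, Vcan, F13a1 and Hp) and none was 2-fold lower; over all 7920 genes at that level, 0.492% were 2-fold higher and 1.24% were 2-fold lower. Yet Ly6c2, the defining surface gene of classical monocytes, was at 12.6 and 11.8 CPM, with a UMI in 6.32% and 10.8% of members and 3.03% and 3.92% of the other cells. The neutrophil gate, at 8.61 and 9.04 CPM, was near that level. Plac8 was at 34.1 and 50.8 CPM against 34.3 and 53.4 in the other cells. Ccr2 was at 221 and 315 CPM in members and higher in set C, at 402 and 393 CPM. Macrophage genes were present at the same time: C1qa at 728 and 652 CPM, Adgre1 (F4/80) at 106 and 92.9, and the mannose receptor Mrc1 at 1244 and 1032. They were not raised, however: C1qa was at 2036 and 1851 CPM in the other gated cells. Of 12 macrophage genes measured, 4 were 2-fold lower in members and none was 2-fold higher. The members are therefore called here by their rule genes and not as monocytes.

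Markers of other cell types ranged from near 0 to a clear collagen signal. The fibroblast list summed to 1195 and 1403 CPM in members, with 4 of 9 genes at 50 CPM or more in both libraries and 2 under 10 CPM, and to 1170 and 1424 CPM in the other gated cells. Col1a1 was at 343 and 334 CPM in members and 22109 and 16543 CPM in the fibroblast gate. The epithelial list summed to 106 and 107 CPM in members, with 5 of 6 genes under 10 CPM, and to 58.4 and 72.2 CPM in the other cells. The part of such RNA in the results was not tested. Of 12 dendritic cell genes, 9 were under 10 CPM in members of both libraries, with Flt3 at 0.392 and 0.687 CPM. A further 3 were at 50 CPM or more in both. The dendritic cell list summed to 502 and 537 CPM in members and to 391 and 477 CPM in the other gated cells. Of 10 neutrophil genes, 7 were under 10 CPM in both, with Retnlg at 0.654 and 0 CPM, Csf3r at 6.67 and 3.66, and Ly6g at 0. The summed neutrophil list was at 1405 and 625 CPM, most of it Mmp9, and in the other 4 sets it ranged from 420 to 1662 CPM. S100a8 behaved apart from the rest of that list. It was at 173 and 126 CPM in members, with a UMI in 56.3% and 56.8% of them, against 32.5 and 35.0 CPM and 26.3% and 27.1% in the other gated cells. S100a9, its partner in calprotectin, was at 4.84 and 8.36 CPM in members. In the neutrophil gate the pair stood level, S100a8 at 15833 and 17344 CPM and S100a9 at 18237 and 20531. S100a8 thus exceeded S100a9 in members, while S100a9 was the higher of the pair in the neutrophil gate of both libraries. Both genes also gated these cells: their sum was under 5000 CPM in each member and at least 5000 CPM in each neutrophil barcode. The part of neutrophil RNA in these values was not tested. A further 4 genes with high neutrophil levels were also 2-fold higher in members in both libraries and were singled out after their values were seen: Gm5483 (408 and 88.8 CPM), Wfdc21 (222 and 136), Dach1 (133 and 101) and Slpi (101 and 139). Cxcl3 itself was at 5923 and 10164 CPM and Car4 at 492 and 322 CPM in the neutrophil gate.

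Members resembled set B most, the Nos2, Mmp12 and Hmox1 cells. In Tom positive, 1.37% of 4021 genes at 50 CPM or more stood 2-fold apart between members and set B, against 6.04% for set C, 6.79% for E and 10.5% for A. In Tom negative the shares were 2.39% of 3933 genes for B, 3.81% for C, 6.64% for E and 8.75% for A. The median absolute log2 difference was lowest to set B in Tom positive (0.18) and to set C in Tom negative (0.18, with 0.20 for B). Nos2, a gene that scores set B, was at 75.7 and 81.7 CPM in members and 253 and 233 in set B.

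At 50 CPM or more, 22 of 3376 genes (0.652%) were at least 2-fold higher in members than in the other gated cells in both libraries and 37 (1.1%) at least 2-fold lower. Leaving out predicted genes, and genes that free RNA could carry because another cell type held over 5 times the level, 17 higher and 26 lower genes remained. The 15 higher genes that were ranked first exceeded every other set in both libraries. Set B was the next highest for 8 of the 15 in each library. Of the 15 lower ones, 11 lay below every other set, the exceptions being Tnip3, Dcstamp, Selenop and Ms4a7. Without shared barcodes the counts were 18 and 42.

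**Figure D2:**
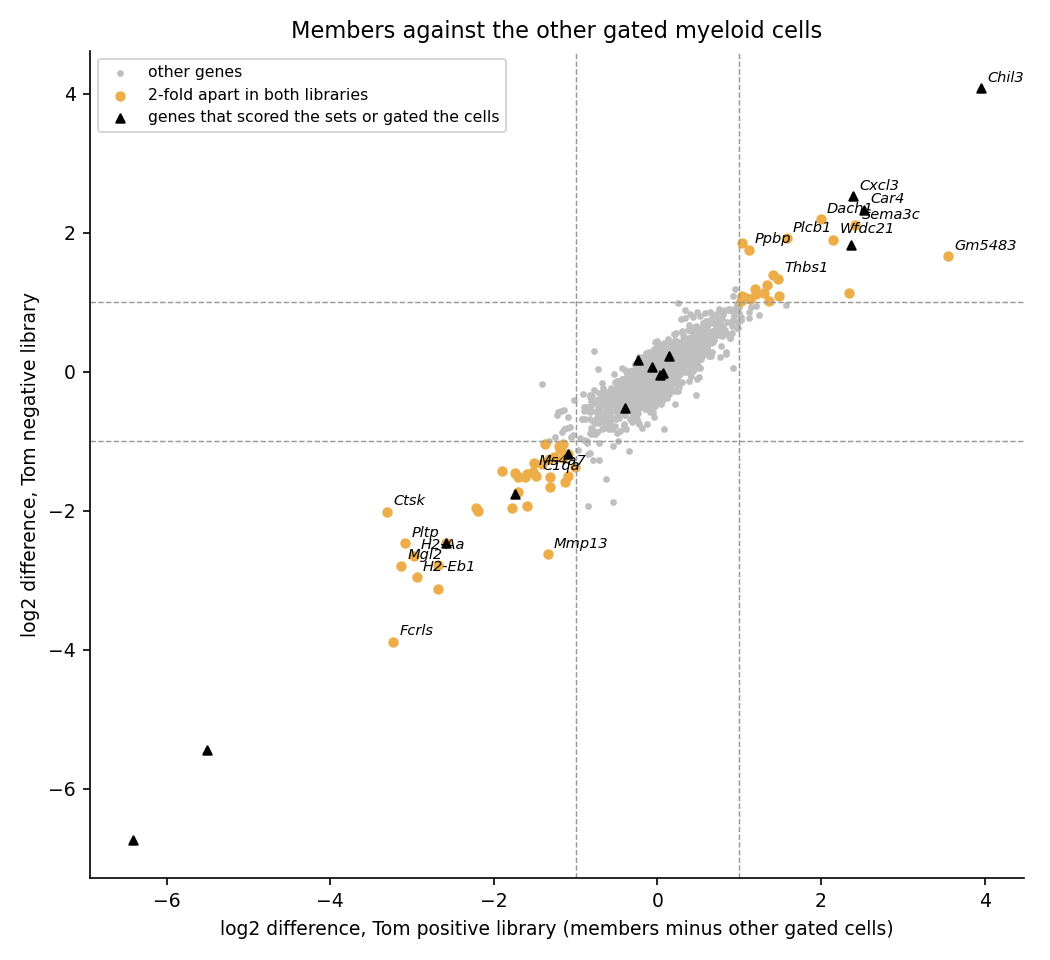
Log2 difference of summed CPM + 1 between members and the other gated myeloid cells, Tom positive library on the horizontal axis and Tom negative library on the vertical axis; each point is a gene at 50 CPM or more, and dashed lines mark 2-fold. Orange genes are 2-fold apart in both libraries and triangles are genes of the rule; Sema3c and Plcb1 lie high, and Fcrls, Mgl2, H2-Eb1 and H2-Aa lie low.

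Among the higher genes, several encode secreted or surface proteins that act on vessels, clotting and matrix. Sema3c, a secreted semaphorin that guides axons and vessels, was at 207 CPM in Tom positive and 83.7 in Tom negative members, against 37.9 and 18.7 in the other cells, a 5.47-fold and 4.48-fold difference. Thbs1, the matrix glycoprotein thrombospondin that restrains vessel growth, was at 3360 and 2605 CPM, 2.78-fold and 2.53-fold higher. Thbd, the thrombin receptor thrombomodulin, was at 309 and 214 CPM, 2.67-fold and 2.64-fold higher. Each of these was high in members of both libraries, and Sema3c had the widest gap to the other gated cells. In set B, Sema3c was at 92.7 and 53.0 CPM and Thbd at 218 and 129 CPM. Outside the myeloid gate, Sema3c was at 87.5 and 137 CPM in fibroblast barcodes and 169 and 150 CPM in epithelial barcodes, in Tom negative above members. Vcan, the large matrix proteoglycan of monocytes, was at 226 and 208 CPM, 2.55-fold and 2.39-fold higher; its lower log2 difference of 1.25 was 0.92, under 2-fold, with a mitochondrial limit of 5%. Cd93, a surface lectin of myeloid and endothelial cells, was at 377 and 230 CPM, 2.05-fold and 2.13-fold higher. Set B lay close to members for Cd93, at 312 and 207 CPM. The endothelial gate held more Cd93, at 651 and 680 CPM, and the fibroblast gate more Vcan, at 451 and 510 CPM. In the neutrophil gate Thbs1 was at 2618 and 2856 CPM, in Tom negative above members. The lower log2 difference of Cd93, 1.03, came under 2-fold in 3 alternatives. These were a minimum of 10000 UMIs (0.99), a mitochondrial limit of 5% (0.90) and UMIs of 2 of the 3 rule genes (0.98). Of 14 coagulation and plasminogen genes measured, F13a1, Thbs1 and Thbd were 2-fold higher and Plau, the urokinase gene, was lower (4.18 and 4.81 CPM against 18.3 and 21.1). Over all 7920 genes the shares were 0.492% and 1.24%.

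Gpat3, Dgat1, Lepr and Adipor2 were also among the 15 higher genes, while the lipid handling list as a whole was not higher. Gpat3, an early enzyme of triglyceride synthesis, was at 134 and 125 CPM, 2.31-fold and 2.30-fold higher. The lower log2 difference of Gpat3 was 1.19, and it came under 2-fold without shared barcodes (0.95), with a mitochondrial limit of 5% (0.90) and after thinning (0.92). Dgat1, which makes the final step to triglyceride, was at 84.4 and 113 CPM, 2.15-fold and 2.11-fold higher, but its lower log2 difference of 1.06 came to 0.37 in cells thinned to 5000 UMIs and was under 2-fold in 7 alternatives. Lepr, the leptin receptor, was at 160 and 223 CPM, 2.50-fold and 2.21-fold higher. It was confined to a part of the cells, with a UMI in 24.7% and 29.3% of members and 19.8% and 23.7% of the other cells, and without shared barcodes its lower log2 difference of 1.14 was 0.18, the lowest of 4 alternatives under 2-fold. Adipor2, an adiponectin receptor, was at 185 and 170 CPM, 2.09-fold higher in both. Pparg, the nuclear receptor that drives fat genes and alveolar macrophage identity, was below the 50 CPM level at 44.6 and 34.8 CPM, 3.32-fold and 2.66-fold above the other cells. The endothelial gate, at 89.4 and 103 CPM, held more Pparg, and the neutrophil gate more Dgat1 (402 and 275 CPM) and Gpat3 (185 and 203 CPM). Of the 15 lipid handling genes measured, 1 (Pparg) was 2-fold higher and 2 (Apoe and Pltp) were 2-fold lower, against 0.492% and 1.24% of all 7920 genes, with medians of -0.25 and -0.35.

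The signalling genes among the higher group were Plcb1, Lrrk2, Il6 and Ppbp. Plcb1, a phospholipase downstream of G-protein receptors, was at 536 and 597 CPM, 3.00-fold and 3.81-fold higher, and it was at 1289 and 1152 CPM in the endothelial gate. Lrrk2, a kinase of lysosomal stress, was at 99.7 and 83.6 CPM, 2.35-fold and 2.21-fold higher, with 68.6 and 74.2 CPM in set B. The lower log2 difference of Lrrk2, 1.12, was 0.97 without shared barcodes and 0.83 with a mitochondrial limit of 5%. Il6, an inflammatory cytokine, was at 153 and 101 CPM, 2.82-fold and 2.16-fold higher. In the fibroblast gate Il6 was at 152 and 206 CPM, in Tom negative above members. Il6 had a log2 difference of 1.09 in the weaker library, and that came to 0.81 after thinning and 0.96 with a mitochondrial limit of 5%. Gramd1b (201 and 108 CPM) and Fam169b (82.8 and 64.4 CPM) completed the 15, both close to 2-fold and under it in 6 and 5 alternatives, with lowest log2 differences of 0.68 and 0.59. Set B held Gramd1b at 154 and 83.4 CPM.

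Cxcl3 lies in a cluster of CXC chemokine genes on chromosome 5 (mm10, GENCODE M21, all on the plus strand), and its neighbours were read in the same cells. From Cxcl5 (start 90759360) through Ppbp (90768518), Pf4 (90772435) and Cxcl3 (90786103) to Cxcl1 (90891241) and Cxcl2 (90903871), the cluster spans 26.7 kb before and 118 kb after the start of Cxcl3. Pf4, a platelet-type chemokine also made by macrophages, was at 3193 and 1756 CPM in members, 1.35-fold and 1.40-fold above the other cells, and was highest in set A at 4685 and 3422 CPM. Ppbp, also known from platelets, was at 463 and 428 CPM, 2.17-fold and 3.40-fold higher. Cxcl2, a Cxcr2 ligand like Cxcl3, was at 4054 and 4889 CPM, 2.00-fold and 1.80-fold higher. Ppbp came to a log2 difference of 0.26 in the weaker library, from 1.11, when membership required UMIs of at least 2 of the 3 rule genes. Cxcl1 was at 65.1 and 78.4 CPM, 1.92-fold higher in Tom positive and 1.04-fold in Tom negative, and Cxcl5 at 15.04 and 9.39 CPM was 2.09-fold and 3.40-fold higher. All 6 genes of the cluster were above the other gated cells in both libraries, with Cxcl3 itself, a rule gene, at 5.24-fold and 5.75-fold. The gap was slight for Cxcl1 in Tom negative, at 78.4 against 75.5 CPM. Mthfd2l, outside the cluster and starting 145 kb after the start of Cxcl3, was also higher, 1.78-fold and 1.79-fold.

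The strongest lower group was antigen presentation on MHC class II. Of 10 such genes measured, 7 were at least 2-fold lower in members in both libraries and none was higher (1.24% and 0.492% of all 7920 genes), with median log2 differences of -1.89 and -1.74, against -0.04 and -0.03 over all genes measured. H2-Aa, a class II chain, was at 199 and 409 CPM in members and 1573 and 2566 in the other gated cells, 7.89-fold and 6.28-fold lower. H2-Eb1 was at 147 and 235 CPM, 7.73-fold and 7.81-fold lower, and H2-Ab1 at 195 and 294 CPM, 6.02-fold and 5.53-fold lower. The invariant chain Cd74 was at 957 and 1779 CPM, 4.58-fold and 4.01-fold lower. All 4 lay below each other set in both libraries. Ciita, which switches the class II genes on, was at 0.915 and 3.43 CPM against 12.4 and 17.9, and the loading factor H2-DMb1 was 3.05-fold and 2.78-fold lower. H2-Aa was highest in set E (3127 and 4191 CPM) and set C (2817 and 3168 CPM), but members were also below set A (665 and 1254 CPM) and set B (883 and 1301 CPM).

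The other lower genes included some of mature macrophages. Fcrls, an Fc receptor-like gene of tissue macrophages, was at 9.02 and 4.35 CPM, 10.3-fold and 18.0-fold lower. Mgl2, a lectin that interleukin 4 induces, was at 25.2 and 46.8 CPM, 9.08-fold and 7.06-fold lower. Pltp, a phospholipid transfer protein, was at 12.7 and 21.5 CPM, 9.04-fold and 5.76-fold lower. C1qa, with its partners C1qb and C1qc the first component of complement, was 2.80-fold and 2.84-fold lower. The selenium carrier Selenop was 3.35-fold and 2.76-fold lower and Ms4a7 2.91-fold and 2.76-fold lower. Of 12 macrophage genes measured, 4 were 2-fold lower (C1qa, C1qb, C1qc and Apoe), 8 were neither and none was 2-fold higher, against 1.24% lower and 0.492% higher of all 7920 genes. Cd83, a maturation marker of antigen-presenting cells, was at 31.6 and 49.9 CPM, 4.75-fold and 3.96-fold lower. Dcstamp, which cells need to fuse, was 3.11-fold and 3.91-fold lower, and Tnip3 3.58-fold and 4.02-fold. Mmp13, a collagenase, was at 60.9 and 26.0 CPM, 2.56-fold and 6.36-fold lower.

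The glycolysis, NF-kB and cell division lists held no gene that was 2-fold apart in both libraries. Such genes were few in any case, 0.492% higher and 1.24% lower of all 7920, so their absence from short lists says little. The median log2 difference over all genes measured was -0.04 in Tom positive and -0.03 in Tom negative. Of 24 glycolysis and hypoxia genes, none was 2-fold higher or lower, with medians of 0.24 and 0.26 on the log2 scale, and Vegfa was at 457 and 397 CPM, 1.52-fold and 1.33-fold above the others. Set B exceeded members for the summed list, at 18551 and 17727 CPM against 13756 and 13629. Of 16 NF-kB targets, none passed 2-fold and the medians were -0.44 and -0.51. Of 18 cell division genes none passed 2-fold, with medians of -0.81 and -0.41, and Mki67 was at 27.2 and 32.5 CPM. Of 10 CC chemokines, Ccl5 and Ccl8 were 2-fold lower and none was higher, against 1.24% and 0.492% of all genes, and Ccl6 was at 4187 and 5449 CPM, 1.31-fold and 1.78-fold above the other cells. Spp1, the osteopontin gene, reached 8551 and 8035 CPM, 1.64-fold and 1.78-fold higher.

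Members were also described by their leading gene, the one with the highest level in that cell. Cxcl3 led in 269 (73.9%) and 286 (73.5%) members, Chil3 in 74 (20.3%) and 78 (20.1%), and Car4 in 21 (5.77%) and 25 (6.43%). These shares were nearly the same in both libraries. Median depth was similar, at 17001 and 19005.5 UMIs for Chil3-led and 18787 and 18896 for Cxcl3-led members. In Chil3-led members Chil3 was at 5985 and 4123 CPM and Cxcl3 at 1453 and 724, while in Cxcl3-led members Chil3 was at 459 and 264 CPM and Cxcl3 at 4799 and 4359. Across 7920 genes at 10 CPM or more, 132 (1.67%) were at least 1.5-fold higher in Chil3-led than in Cxcl3-led members of both libraries and 108 (1.36%) at least 1.5-fold lower. The split uses the rule genes, so it too is a description.

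Cxcl3-led members held more of the chemokines. Pf4 was at 3954 and 2280 CPM in them and 1414 and 412 in Chil3-led members, 2.80-fold and 5.54-fold higher. Ppbp was at 574 and 579 CPM against 224 and 64.1, 2.56-fold and 9.04-fold higher. Cxcl2 was at 4681 and 5621 CPM against 2371 and 3253, 1.97-fold and 1.73-fold higher. The neighbours of Cxcl3 on chromosome 5 were thus higher where Cxcl3 led, with 3 of 4 measured past 1.5-fold in both libraries. The monocyte attractants Ccl2 (636 and 753 CPM), Ccl7 (227 and 338) and Ccl12 (139 and 188) were 1.55 to 4.88 times their level in Chil3-led members. Of 10 CC chemokines, 4 passed 1.5-fold. Among all 7920 genes, 1.36% were 1.5-fold higher in Cxcl3-led members of both libraries. The activin subunit Inhba was at 173 and 112 CPM against 34.1 and 70.5, Il6 at 166 and 113 against 99.1 and 67.6, and the gelatinase Mmp9 at 1341 and 464 against 667 and 140.5.

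Chil3-led members held more RNA of cell division genes and of several lipid genes. Of 18 cell division genes, 8 were at least 1.5-fold higher in Chil3-led members of both libraries and none lower, with medians of 0.77 and 0.69 on the log2 scale against 0.03 and 0.02 over all genes. Among all 7920 genes, 1.67% were 1.5-fold higher in Chil3-led members and 1.36% were 1.5-fold lower. Mki67, a marker of cycling cells, was at 49.6 and 43.1 CPM against 20.5 and 20.3, Top2a at 62.4 and 64.1 against 24.1 and 34.5, and Stmn1 at 102 and 119 against 43.7 and 65.6. Of 15 lipid handling genes, 3 were 1.5-fold higher and none lower, with medians of -0.05 and 0.14. Pparg was at 67.6 and 63.0 CPM against 36.2 and 23.03, and the cholesterol exporter Abcg1 at 97.2 and 108 against 46.1 and 31.4. Lpl, which frees fatty acids from lipoproteins, was at 139 CPM in both against 57.6 and 82.7, and Lepr at 254 and 408 against 126 and 147.5. Ear2 (133 and 202 CPM against 11.3 and 21.3) and Plet1 (26.4 and 70.5 against 7.02 and 4.64) were also higher there. Both are genes of the rule: they score sets C and E, whose z had to stay below that of D in a member. The median z for D was 1.88 and 1.19 in Chil3-led members and 1.01 and 0.813 in Cxcl3-led members. The part of the rule in the Ear2 and Plet1 differences was not tested. Vcan (228 and 224 CPM against 227 and 209) and Ccr2 (220 and 313 against 211 and 329) stood at like levels in both kinds of member.

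**Figure D3:**
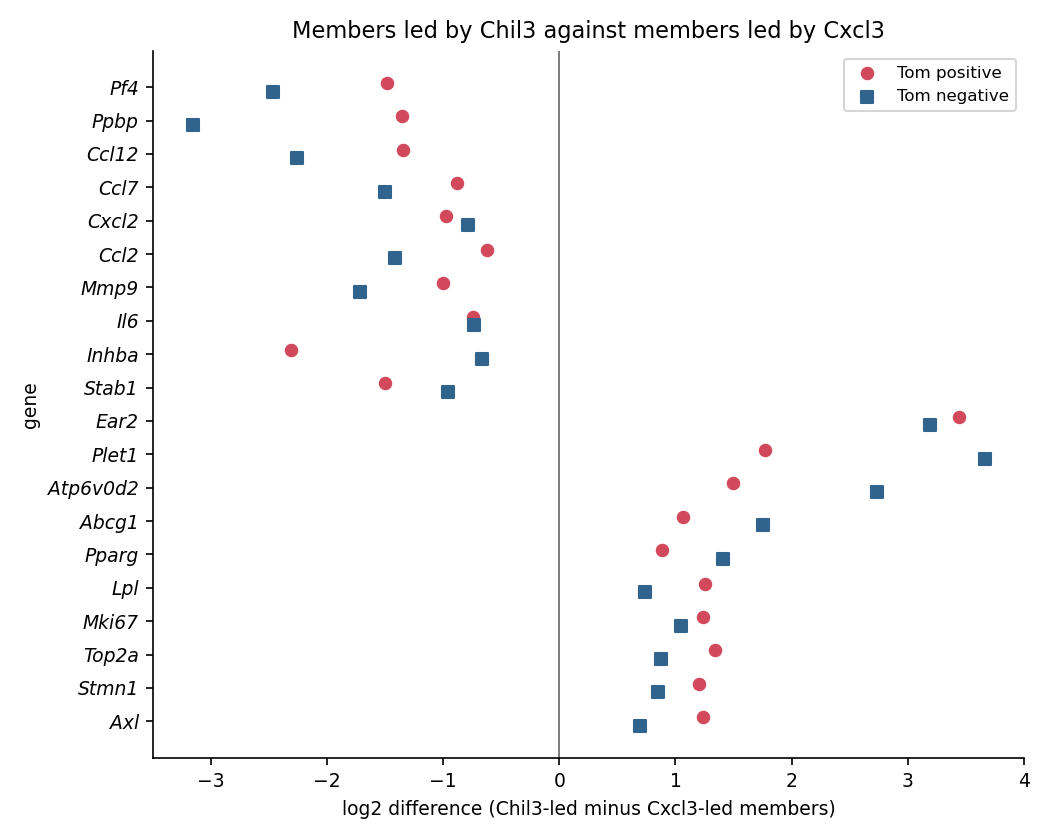
Log2 difference of summed CPM + 1 between Chil3-led and Cxcl3-led members for 20 genes, chosen after their values were seen; circles are the Tom positive library (74 and 269 members) and squares the Tom negative library (78 and 286 members). Chemokine genes lie left of 0, and Ear2, lipid and division genes lie right of 0, in both libraries. Ear2 and Plet1 are genes of the rule that chose the members.

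The reporter followed the sort in members. tdTomato was at 1032 CPM in Tom positive members (1010 to 1055) and 56.5 CPM in Tom negative members (51.7 to 61.8), a ratio of 18.3 (exact interval 16.7 to 20.0). Each other set had a higher ratio, at 31.0 (A), 22.3 (B), 20.4 (C) and 23.4 (E). In Tom negative the level was highest in members, against 41.1 (A), 49.6 (B), 42.3 (C) and 32.7 CPM (E). At 500 CPM or more stood 295 of 364 Tom positive members (81.0%, 76.6 to 84.9%) and 2 of 389 Tom negative members (0.514%, 0.0623 to 1.84%). The other sets of Tom positive held 74.8% (A), 75.3% (B), 69.5% (C) and 64.5% (E) of such cells. Members had the highest share, but its interval overlapped those of sets A (69.5 to 79.7%), B (70.0 to 80.1%) and C (60.3 to 77.6%). The summed level was higher in sets A (1275 CPM) and B (1107 CPM) than in members. Between 250 and 1000 CPM, near the limit, lay 135 Tom positive members. Members with a tdTomato UMI were 97.3% and 57.6%, and 89.6% and 24.9% once cells were thinned to 5000 UMIs. The Tom negative library gives the level measured the same way in cells sorted as negative.

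Cdkn2a, whose p16 product names the reporter, was at 54.1 CPM in Tom positive members (49.1 to 59.6) and 28.5 in Tom negative members (25.1 to 32.3). The ratio was 1.90 (1.62 to 2.23), and it came to 1.49 in cells thinned to 5000 UMIs and 1.82 without shared barcodes. In the other gated cells together the Cdkn2a ratio was 2.15. Members were second to set B, where Cdkn2a was at 96.6 and 39.7 CPM, and above A, C and E, which ranged from 19.2 to 30.6 CPM in Tom positive and 13.7 to 17.0 in Tom negative. Members with a Cdkn2a UMI were 46.2% and 30.8%, or 19.8% and 12.3% after thinning. The counts do not tell the p16 transcript from Arf, which shares the gene. Of 10 cell cycle inhibitor and senescence genes measured between the libraries, Cdkn2a alone was 1.5-fold higher and none was 1.5-fold lower, against 3.67% and 1.65% of all 8001 genes at 10 CPM or more.

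**Figure D4:**
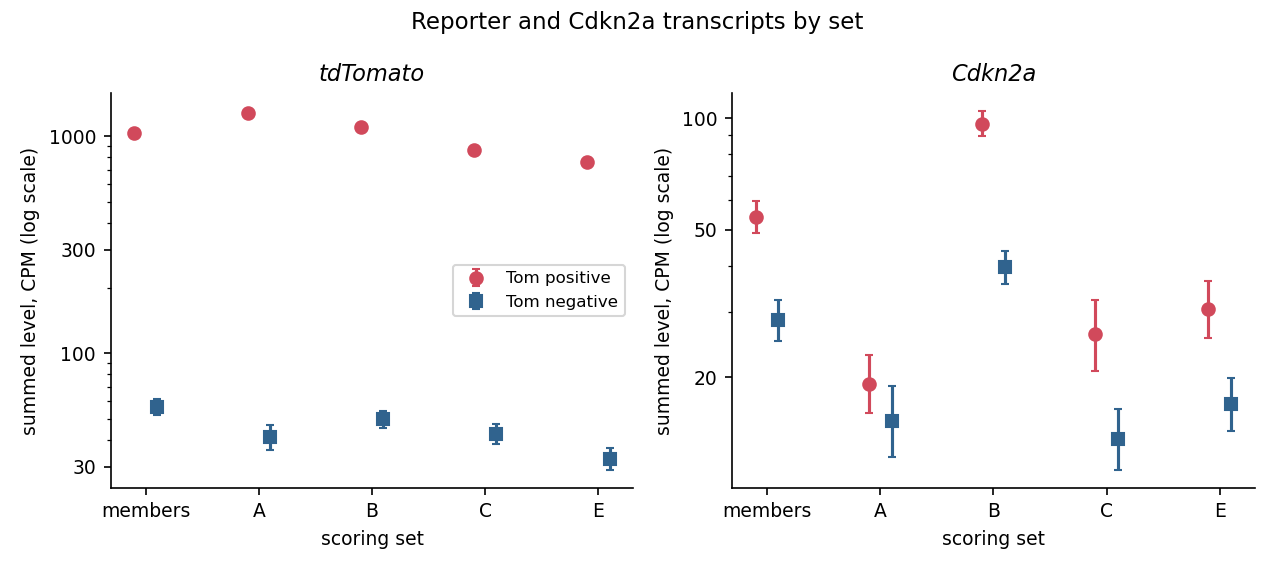
Summed level (CPM, log axes) of tdTomato and Cdkn2a in members and the other 4 sets, circles for Tom positive and squares for Tom negative, with exact 95% Poisson intervals that cover counting error only. tdTomato separates the libraries in each set, and Cdkn2a is highest in set B (96.6 and 39.7 CPM) and next in members (54.1 and 28.5 CPM).

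Between the libraries, 62 of 3449 genes at 50 CPM or more (1.8%) were at least 1.5-fold higher in Tom positive members and 26 (0.754%) at least 1.5-fold lower. At 10 CPM or more the counts were 294 (3.67%) and 132 (1.65%) of 8001. These counts moved with the cells used: without shared barcodes they were 142 and 90, and thinned to 5000 UMIs per cell 112 and 98. Of the 37 higher genes left after the filters named above, 35 were also higher in Tom positive among the other gated cells, 12 of them by 1.5-fold, and all 17 lower genes were also lower there, 5 by 1.5-fold. Most of these differences thus had the same direction in the other gated myeloid cells. Median mitochondrial shares of members differed as well (2.93% and 4.26%).

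Endothelial RNA moved with the libraries as well. Of 6 endothelial genes measured in members, all 6 were at least 1.5-fold higher in Tom positive, against 3.67% of all 8001 genes at 10 CPM or more. The summed list was at 222 and 68.3 CPM in members, against 196 and 78.4 CPM in the other gated cells. Cdh5 was at 27.2 and 3.20 CPM and Cldn5 at 12.8 and 0.458 in members, and their level in the endothelial gate of Tom positive was 1293 and 376 CPM. That gate held 578 barcodes in Tom positive and 112 in Tom negative. The part of such RNA in the library differences of members was not tested.

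Of 10 matrix metalloproteinase and inhibitor genes, 4 were 1.5-fold higher in Tom positive members (Mmp8, Mmp9, Mmp13 and Timp3) and Timp1 was lower; of 3 metallothioneins, Mt2 alone was higher. Over all 8001 genes the shares were 3.67% and 1.65%. Mmp9, a gelatinase, was at 1151 and 445 CPM, 2.59-fold higher (2.49 to 2.69), against 1.38-fold in the other gated cells. Mmp13 was at 60.9 and 26.0 CPM, 2.35-fold higher, while the other cells stood at 0.943-fold. Mt2, a metal-binding metallothionein, was at 1141 and 495 CPM, 2.31-fold higher against 1.56-fold. These 3 differed more in members than in the cells around them; the difference of the differences could not be tested. Sema3c was 2.47-fold higher (207 and 83.7 CPM), against 2.03-fold in the others, and Maf, a macrophage transcription factor, 2.20-fold (274 and 125 CPM) against 1.95-fold. F13a1 was 1.88-fold higher, against 1.87-fold. Txnip (76.6 and 38.0 CPM), Agbl3 (58.6 and 28.7), Jag1, a Notch ligand (59.9 and 31.0), and Gramd1b (201 and 108) were 1.86-fold to 2.04-fold higher.

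Class II genes, 3 genes of the IL-1 family and some cell division genes were lower in Tom positive members. Over all 8001 genes at 10 CPM or more, 3.67% were 1.5-fold higher in Tom positive members and 1.65% were 1.5-fold lower. H2-Aa stood at 199 CPM in Tom positive and 409 in Tom negative, a ratio of 0.488, against 0.613 in the other cells, and Cd74 at 957 and 1779 CPM, a ratio of 0.538. Of 9 class II genes measured, 5 were 1.5-fold lower and none was higher; with a mitochondrial limit of 5%, the log2 differences of Cd74 (-0.89) and H2-Eb1 (-0.68) came to -0.57 and -0.30, under 1.5-fold. Of 12 IL-1 family and inflammasome genes, Il1a, Il1b and Il1r2 were 1.5-fold lower and Il1r1 was higher, while none of 16 NF-kB targets was 1.5-fold apart. Of 12 interferon-induced genes, 4 were higher (Irf1, Rsad2, Gbp2 and Cxcl10) and none lower. Il1b was at 777 and 1318 CPM, a ratio of 0.590, Il1a at 166 and 256, a ratio of 0.647, and the decoy receptor Il1r2 at 228 and 396, a ratio of 0.575; each was also lower in the other cells (0.641, 0.700 and 0.679). The log2 difference of Il1a, -0.63, came under 1.5-fold in 4 alternatives, to -0.47 after thinning. Il1a and Il1r2 stood far higher in the neutrophil gate of Tom positive, at 701 and 1839 CPM. Of 18 cell division genes, 7 were 1.5-fold lower and none higher, with a median log2 difference of -0.52. Ube2c, which drives exit from mitosis and is not in that list, was at 20.9 and 56.2 CPM, a ratio of 0.372 against 0.903 in the other cells, and Cdk1 at 13.5 and 28.4, a ratio of 0.475 against 0.967. The histone gene Hist1h2ap (18.8 and 102 CPM, ratio 0.185, others 0.181) differed by nearly the same factor in members and others. Ass1, Ccnd2, Piwil2, Erh and Bcl2a1d had ratios from 0.544 to 0.646, and with a mitochondrial limit of 5% the log2 differences of Ccnd2 (-0.43) and Erh (-0.52) were under 1.5-fold.

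**Figure D5:**
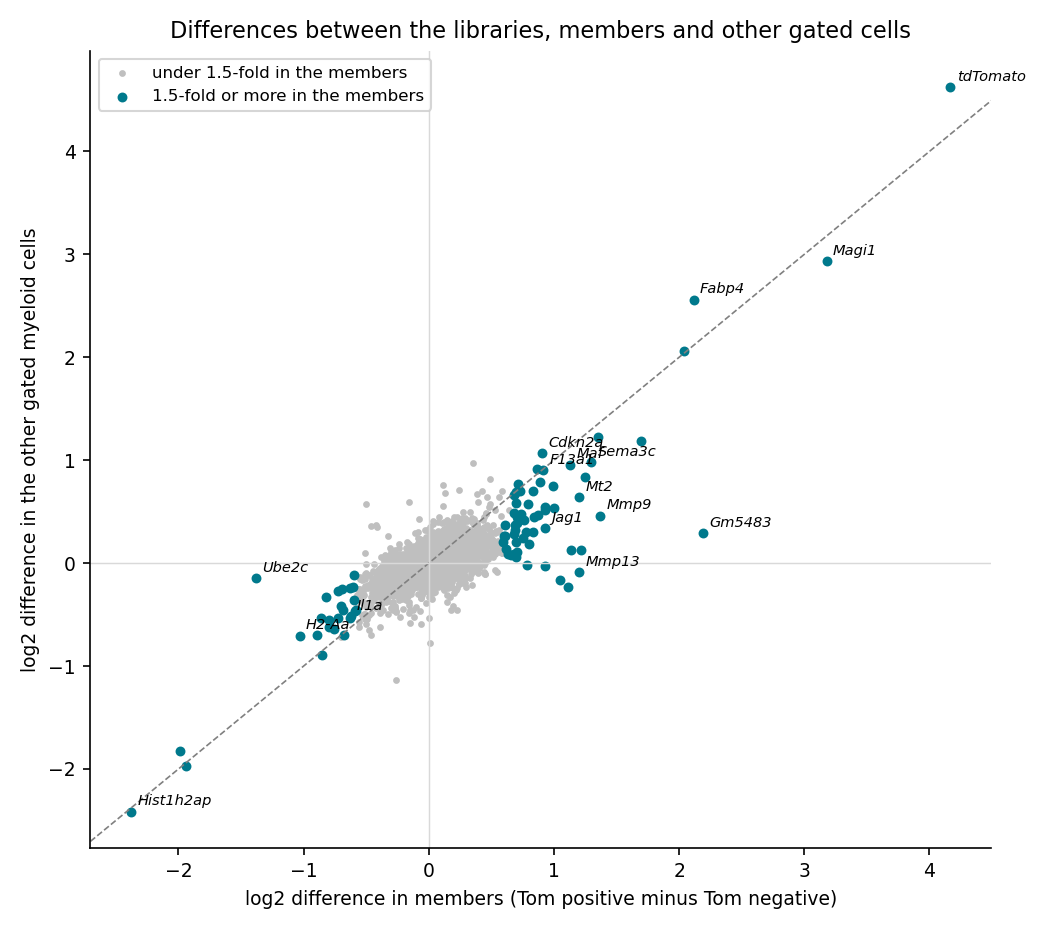
Log2 difference of summed CPM + 1 between the Tom positive and Tom negative libraries, in members (horizontal axis) and in the other gated myeloid cells (vertical axis), for genes at 50 CPM or more in members; the dashed line is equality. Hist1h2ap lies near the line, while Mmp9, Mmp13, Mt2 and Ube2c lie away from it. tdTomato lies above the line, with 4.17 in members and 4.63 in the other cells.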

How the data were processed

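The authors deposited raw UMI counts per gene and cell barcode, made with Cell Ranger 7.0.1 per the file headers and against mm10 per the submitters' processing notes; the annotation release and cell calling were not given in the sources used here. Libraries were made with the 10x Genomics 3' kit after tumour digestion and fluorescence sorting, per the labels' protocols.

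Scores were means of log(1 + counts per 10000 UMIs). UMIs were summed over members, or over the other gated cells, in each library, scaled to CPM and compared as log2(CPM + 1). Genes needed 50 CPM in a compared group (10 CPM for lists), and a call meant 2-fold in both libraries against other myeloid cells or 1.5-fold between libraries; no test was run. Intervals were exact (95%). The members and the 43 gene lists were chosen with earlier results of these data known. Named were, among called genes, the 15 highest and 15 lowest against the other cells by the weaker library, the 12 highest and 12 lowest between libraries, the scoring genes, the proposed markers, and members of lists. Mitochondrial, ribosomal, haemoglobin, immunoglobulin and predicted genes, genes of the rule, and genes below 0.2 of their level in fibroblast, neutrophil, endothelial or epithelial gated barcodes were not ranked. Some genes that this rule names are not reported here. Genes named for the Chil3-led and Cxcl3-led split were picked after their values were seen. Scrublet in scanpy 1.11.5 called 63 of 4365 and 97 of 6677 barcodes as doublets; they were kept and left out in an alternative. Thinning drew 5000 UMIs per cell. Alternatives also covered shared barcodes, depth, mitochondrial limit, membership, TMM factors from edgeR 4.0.16, the level minimum and the pseudocount. The scripts were tested on simulated data. Gene positions are from GENCODE M21 (mm10) and promoter sequences from RefSeq. Python 3.11.15, numpy 2.4.6, scipy 1.17.1, pandas 2.3.3 and R 4.3.3 were used.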

Additional observations from a re-analysis of the deposited data

How the results depend on the processing

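With 1 library per group, no replicate could be left out, and depth and library preparation cannot be told apart from the sort. Members were 29.0% of gated cells in Tom positive and 22.0% in Tom negative. In Tom positive the share was 32.3% with a mitochondrial limit of 5%, 25.3% with z within library, 20% when D had to lead by 0.5 z, and 21.0% with UMIs of 2 of the 3 rule genes. In Tom negative the last 3 of these gave 24.3%, 13.6% and 15.2%. The 22 genes 2-fold higher and 37 lower in members became 39 and 98 at a minimum of 10 CPM; under the other alternatives they were 16 to 24 and 32 to 50. Between libraries the 62 higher genes became 142 without shared barcodes (52 shared with the 62), 112 after thinning (48 shared), 94 by means over cells (52 shared) and 294 at 10 CPM. The 26 lower genes became 90 without shared barcodes (21 shared), 54 with z within library (26 shared), 48 with D ahead by 0.5 z (18 shared), 98 after thinning (22 shared), 64 by means over cells (21 shared) and 132 at 10 CPM; with a mitochondrial limit of 5% they were 23, of which only 12 were among the 26. The cause was not tested, except that a lower minimum admits more genes. The tdTomato ratio ranged from 17.5 to 18.8, and the Cdkn2a ratio of 1.90 was 1.49 after thinning and 1.70 to 2.17 otherwise. Of 594 values of named genes under these alternatives, none changed sign, 477 stayed within 0.2 on the log2 scale and 44, from 17 genes, came under the fold.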
